A study of Mus musculus with 6 samples.

Results

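Long domains with low H3K79me2 signal were examined in myeloid leukaemias that MN1 (meningioma-1) had caused in mice. They are the autosomal peaks of at least 20 kb with a pileup below 40 in the authors' combined peak list, where the pileup is the coverage by pooled H3K79me2 reads. The rule was met by 493 peaks, which is 2.68% of the 18418 autosomal peaks and 15.6% of the 3156 autosomal peaks of that length. The whole list, sex chromosomes included, holds 18992 peaks. The domains were chosen by length and pileup, so neither is a result about them, and no test was run on them.

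H3K79me2 is the dimethyl mark that DOT1L, the main H3K79 methyltransferase of mammals, places on the globular core of histone H3. DOT1L travels with partners such as AF10 and with elongation factors, and the mark usually lies over the first part of transcribed genes, higher where transcription is more active. In leukaemias with MLL rearrangements, marked stretches over some target genes are long and strong. The study behind these data asked about DOT1L and MLL1 in leukaemia caused by MN1, a transcriptional cofactor. The domains described here are long stretches with a low pileup by the rule above, at a median of 2.62 times the control background.

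Chromatin was precipitated with an antibody against H3K79me2 (Abcam ab3594) in 3 libraries, and 3 libraries of input, chromatin sequenced without the antibody, served as the other group. Both groups came from C57BL/6 mice that had been transplanted with MN1-transformed CMP cells and were moribund. All libraries carried Dot1l f/f, a conditional allele that was not inactivated. The leukaemic blasts were sorted from bone marrow and grown briefly with serum, Il3, Il6 and SCF. The labels do not say whether numbered libraries came from different mice or what part of the sorted cells still belonged to the host. The libraries were pooled into 1 list with no value per library, so the spread between replicates is unknown and no test between samples was possible. Shares below carry exact Clopper-Pearson 95% intervals and medians carry exact rank intervals. These cover the counting of peaks only, and neighbouring peaks are not independent. The list names no genes. An annotation of its build, mm9, was not used here, so domains are given by position, gene markers of the cell type were not checked and no sequence is printed.

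By the rule itself, the long low domains carried less signal than other peaks of their length. Their median signal was somewhat above that of all autosomal peaks, whose median pileup was 27.3 and median fold 2.28. Together they covered 18.4 Mb, which is 8.45% of the 217.6 Mb covered on the autosomes. Their median length was 29.8 kb (28.2 to 31.5), with quartiles of 23.8 and 43.9 kb and a longest of 173.5 kb. Of the 493 domains, 249 were under 30 kb, 97 reached 50 kb and 8 reached 100 kb. Their pileup had a median of 31.4, quartiles of 27.6 and 35.4 and a lowest value of 22.2. There were 207 domains below a pileup of 30, 148 from 30 to under 35, and 138 from 35 to under 40. The domains thus filled the range up to the threshold with no gap beneath it.

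The authors' fold over the control background followed the pileup closely. The median fold was 2.62 (2.57 to 2.68) in the long low domains, against 6.51 in the 2663 autosomal peaks of at least 20 kb with a pileup of 40 or more, called long well-marked domains from here on. It was 1.96 in the 11289 peaks shorter than 20 kb with a pileup below 40, called short low peaks. Among the long low domains the fold ran from 1.97 to 3.43, and 4 domains had a fold under 2 while 94 had a fold of at least 3. Spearman's rho between pileup and fold was 0.97 over the 493 domains, a description only, because the fold is computed from the pileup. The control background under the domains, worked out from pileup and fold, was narrow. Its median was 11.2 in the long low domains, 11.7 in the long well-marked domains and 10.9 in the short low peaks, and 18418 autosomal peaks together had a median of 11.2.

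The peak caller's confidence in these domains lay between that of the other long peaks and that of short low peaks. The −log10 q, the authors' deposited value for pooled reads against control, had a median of 5.68 (5.42 to 5.98) in the long low domains, 45.7 in the long well-marked domains, 2.02 in the short low peaks and 3.65 over all autosomal peaks. In the long low domains its quartiles were 3.97 and 7.88 and its highest value 13.9. It reached 5 in 296 of 493 domains (60.04%, 55.6 to 64.4), against all 2663 long well-marked domains, 12.2% of the short low peaks and 45.1% of all autosomal peaks. It reached 10 in 36 domains (7.30%, 5.17 to 9.97), against 2660 long well-marked domains and 36.6% of all autosomal peaks. These values follow from the pileup that chose the domains and say nothing further about them.

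**Figure D1:**
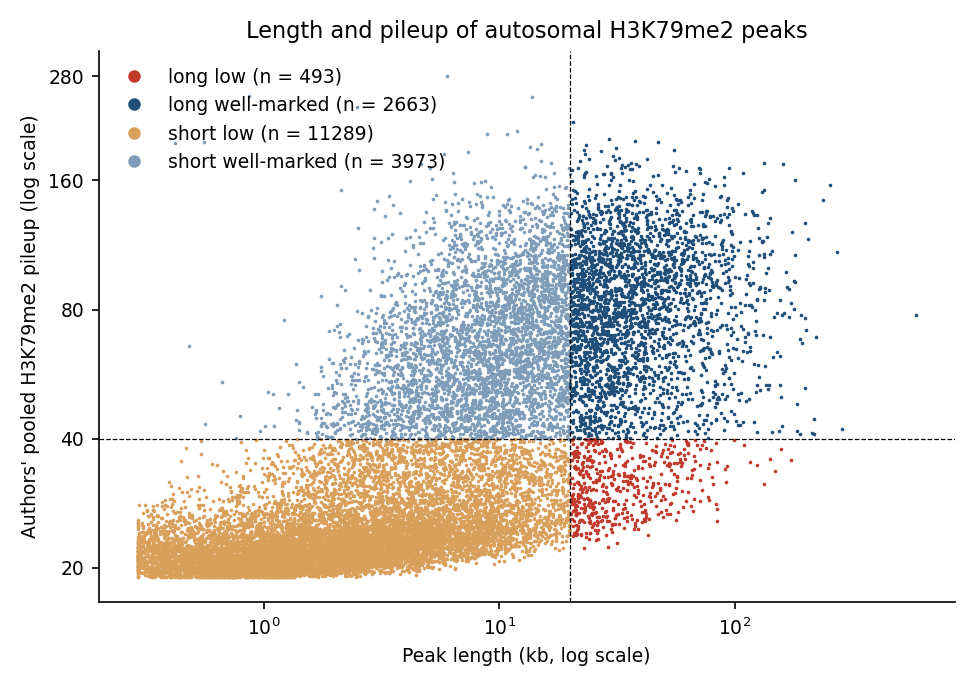
Each point is an autosomal H3K79me2 peak, with its length (kb, log scale) on the x axis and the authors' pooled pileup (log scale) on the y axis. Dashed lines mark 20 kb and a pileup of 40 and the 493 long low domains fill the lower right corner.

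Low signal became rarer with length. Of the 724 autosomal peaks from 20 to under 25 kb, 165 had a pileup below 40 (22.8%, 19.8 to 26.02). The share was 16.3% from 25 to under 30 kb, 13.9% from 30 to under 40 kb and 14.04% from 50 to under 75 kb. It was 8.67% (5.13 to 13.5) from 75 to under 100 kb, and 5.23% (2.28 to 10.04) at 100 kb or more, where 8 of 153 peaks were low. The middle classes, from 25 to 75 kb, did not differ beyond their intervals. Across the 493 domains, rho between length and pileup was 0.20, in a range cut off by the rule on both measures.

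Peaks just inside and just outside the rule were alike in their values. The shortest members were 20.08, 20.1 and 20.1 kb long with pileups of 31.5, 28.5 and 26.8. The longest low peaks left out measured 19.998, 19.97 and 19.96 kb, with pileups of 23.9, 25.3 and 35.5. The highest pileups inside were 39.95, 39.95 and 39.9, with folds of 3.295, 3.35 and 3.12. The lowest outside were 40.05, 40.06 and 40.1, with folds of 3.29, 3.47 and 3.15.

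The longest long low domain, at 173.5 kb, was found between 67268878 and 67442363 on chromosome 11. Its pileup was 35.7, its fold 2.96 and its −log10 q 8.07. To its left the next peak was 391.7 kb away, and to its right a peak of 4.54 kb with a pileup of 19.8 began after 1.66 kb. The nearest peak with a pileup of 40 or more was 337.6 kb away, so this domain stood in a stretch with no strong marking near it.

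The other very long members differed in their surroundings. A domain of 157.0 kb on chromosome 7, from 124524518 to 124681493, had a pileup of 37.8 and its nearest well-marked peak 565.8 kb away. A domain of 147.9 kb on chromosome 11, from 108057064 to 108204953, had a pileup of 33.6 and none within 618.0 kb. A domain of 141.1 kb on chromosome 10, from 39089931 to 39231063, had a pileup of 35.9 and no other peak of any kind within 216.8 kb. Only the fifth, 132.7 kb on chromosome 3 from 28260057 to 28392706, adjoined strong marking. Its pileup was 31.4, and a peak of 98.0 kb with a pileup of 52.2 ended 1.70 kb before it. Among the shorter domains of at least 100 kb, those of 116.5 kb on chromosome 10 and 109.1 kb on chromosome 19 also adjoined strong marking. Their nearest well-marked peaks were 2951 and 1251 bp away. For the domain of 124.6 kb on chromosome 1 that distance was 753186 bp.

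The 5 weakest long low domains were 23.0 to 31.5 kb long, and each had another peak within 3.3 kb. The lowest pileup was 22.2, in a domain of 23.0 kb on chromosome 18 from 61483643 to 61506640, where the fold was 1.997 and −log10 q 2.14. The second and the fourth lowest, with pileups of 22.4 and 23.3, were neighbours on chromosome 18, from 5006101 to 5035099 and from 4978716 to 5004498, parted by 1.602 kb. The fourth was itself 2.66 kb from a peak of 55.1 kb with a pileup of 42.2. Another of the 5 weakest, on chromosome 1 from 172343878 to 172375425, had a pileup of 22.8 over 31.5 kb. The last of them, on chromosome 8 from 81132356 to 81158521, had a pileup of 23.4 over 26.2 kb. Both had other peaks within 3.3 kb on each side, with pileups from 19.9 to 23.9.

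The strongest members were found both beside well-marked domains and alone. The highest −log10 q, 13.9, belonged to a domain of 23.1 kb on chromosome 17 from 47008473 to 47031565, where the pileup was 39.9 and the fold 3.38. A peak of 33.7 kb with a pileup of 56.1 ended 1.35 kb before it. The next highest, 12.4, belonged to a domain of 36.1 kb on chromosome 14 between 67453237 and 67489294, which had a fold of 3.40 and no other peak within 110.03 kb. The highest fold, 3.43, was that of a domain of 24.8 kb on chromosome 15 from 79208785 to 79233553. On chromosome 6, the domain of 63.5 kb between 37330019 and 37393530 had a fold of 3.39, a weak peak 2.004 kb to its left and nothing for 427.6 kb to its right. The other members with the highest folds or −log10 q lay on chromosomes 6 (108188616 to 108215834, fold 3.38), 1 (137518651 to 137586777, −log10 q 11.7) and 17 (5403304 to 5429311, −log10 q 11.4).

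**Figure D2:**
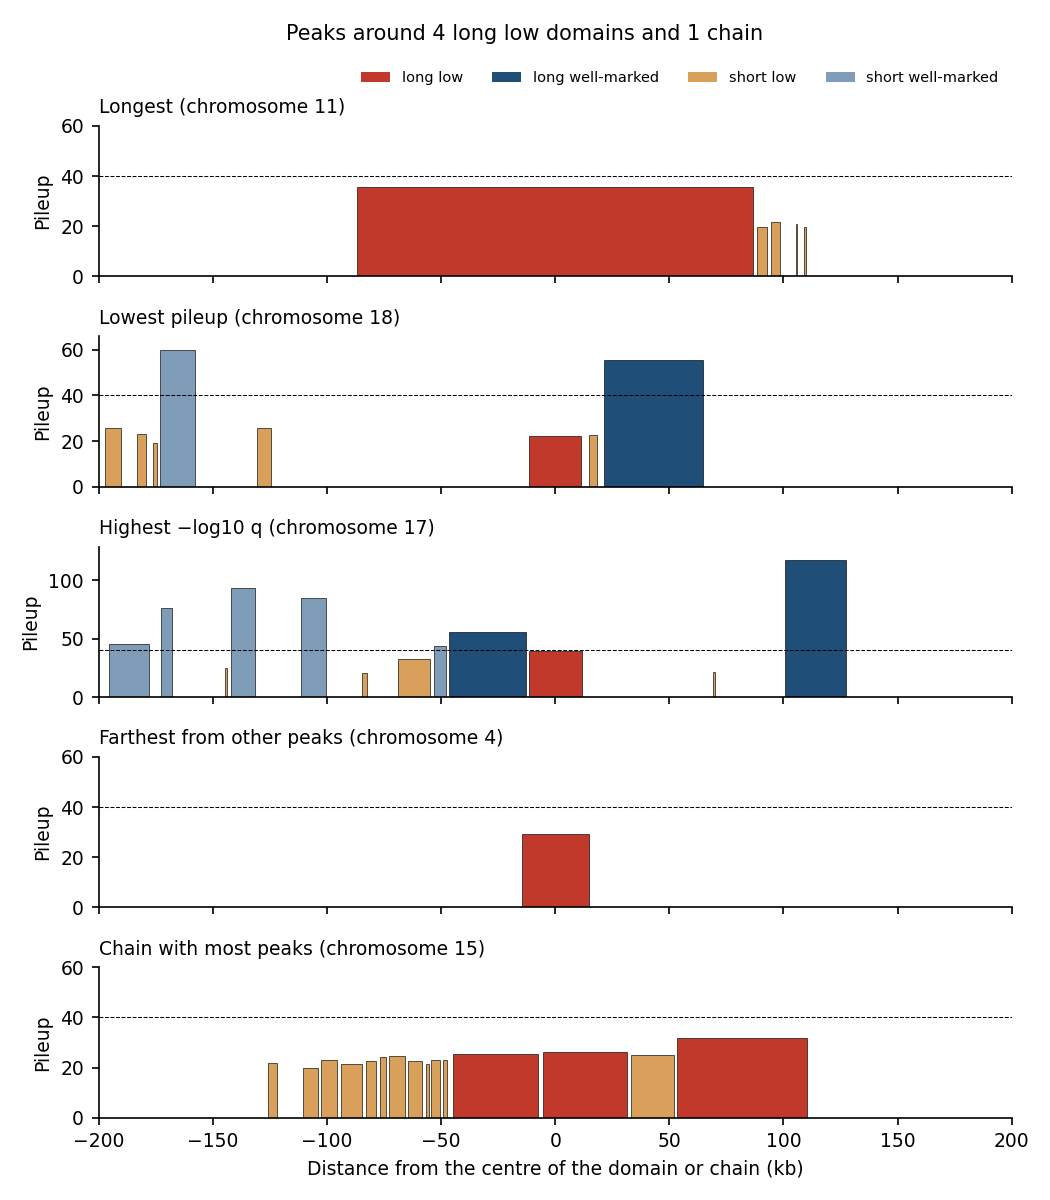
Peaks within 200 kb of the centre of 4 long low domains and of 1 chain of peaks, drawn as boxes with their length on the x axis (distance from the centre, kb) and the authors' pileup as height, with a dashed line at 40. The domain on chromosome 4 has no neighbour in view, the one on chromosome 17 adjoins a peak with a pileup of 56.1, and the chain on chromosome 15 stays between 19.9 and 31.8.

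Most long low domains had another peak close by. Another peak lay within 5 kb of 386 of the 493 domains (78.3%, 74.4 to 81.9), against 1429 of the 2663 long well-marked domains (53.7%, 51.7 to 55.6). The share was 69.7% (68.9 to 70.6) in the short low peaks and 60.8% over all autosomal peaks. The median gap to the nearest other peak was 1.85 kb (1.74 to 2.04) in the long low domains, 4.26 kb in the long well-marked domains and 2.39 kb in the short low peaks. No peaks in the list lie closer than 1.17 kb on the autosomes, so many of these gaps were near the shortest that the list holds. Neighbours were not part of the rule, but the peak calling can link them to the pileup of a domain, which was not tested. The same limit applies to the chains and the flanking cover below. On both sides, a peak within 5 kb was found for 158 long low domains (32.05%, 27.9 to 36.4), against 208 long well-marked domains (7.81%, 6.82 to 8.90), 24.2% (23.4 to 25.03) of the short low peaks and 17.7% of all autosomal peaks. No peak within 50 kb on either side was found for 26 long low domains (5.27%, 3.47 to 7.63), against 300 long well-marked domains (11.3%, 10.1 to 12.5), 4.86% (4.47 to 5.28) of the short low peaks and 7.7% of all autosomal peaks. In this last measure the long low domains and the short low peaks did not differ beyond their intervals. The intervals of the long low and long well-marked domains did not overlap in these comparisons, but the intervals cover counting only.

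Counting only stronger neighbours lowered these shares in both sets of long peaks. With the 493 domains kept and only neighbours of −log10 q of at least 5 counted, 32.9% (28.7 to 37.2) of the long low domains had a peak within 5 kb, against 19.2% (17.7 to 20.7) of the long well-marked domains. With neighbours of at least 10, the shares were 22.5% (18.9 to 26.5) and 13.4% (12.2 to 14.8). The median gap was then 42.3 kb (30.9 to 51.2) from the long low domains and 38.7 kb (35.997 to 42.2) from the long well-marked ones, the other direction from the full list, with intervals that overlap. Filtering the domains as well left 296 long low domains at −log10 q of at least 5, of which 31.8% had such a neighbour. At 10 it left 36, of which 19.4% (8.19 to 36.03) did, against 13.5% of the long well-marked domains, with a median gap of 66232 bp (16045 to 106664). Joining peaks at most 3 kb apart before the rule was applied left 39.6% of 669 long low regions with a peak within 5 kb, against 19.6% of 2784.

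The share with a close neighbour changed along the pileup and not only at the threshold. Among peaks of at least 20 kb, it was 84.1% (78.3 to 88.8) below a pileup of 30 and 74.1% (68.6 to 79.1) from 30 to under 40. It was 59.01% from 40 to under 60, 53.3% from 60 to under 80, 54.3% from 80 to under 100 and 49.4% at 100 or more. For peaks on both sides the shares were 42.5% (35.7 to 49.6) and 24.5% (19.6 to 29.9) in the 2 low classes, and between 5.98% and 9.92% in the 4 classes above. Median length rose over the classes, with 27.3 kb in the lowest and 37.2 kb in the highest. Among peaks of 20 to under 30 kb alone, the share with a close neighbour was 82.9% of 123 below a pileup of 30, 69.8% of 126 from 30 to under 40, and from 44.9% to 52.6% in the classes above.

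**Figure D3:**
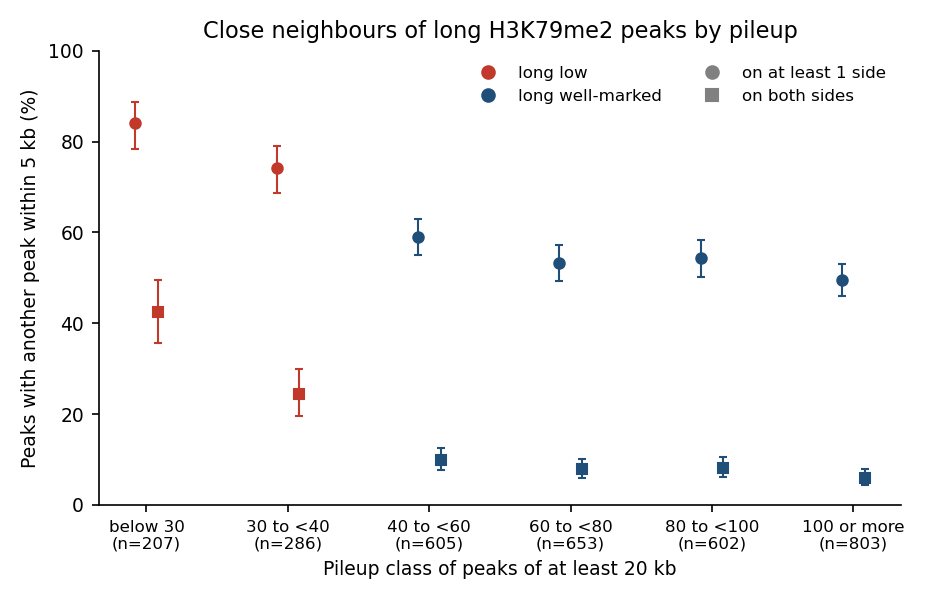
Share of autosomal peaks of at least 20 kb that had another peak within 5 kb, on at least 1 side (circles) and on both sides (squares), by pileup class on the x axis. Bars are exact 95% intervals, long low classes are red and long well-marked classes blue, and the red classes lie above the blue in both measures.

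Among low peaks, close neighbours were more frequent in longer ones up to about 20 kb. Of the peaks with a pileup below 40, 67.0% of those under 1 kb had a peak within 5 kb, 73.8% of those of 5 to under 10 kb and 77.2% of those of 10 to under 20 kb. In the long low domains the share was 76.3% (70.5 to 81.4) from 20 to under 30 kb, 79.6% (72.2 to 85.8) from 30 to under 50 kb and 81.4% (72.3 to 88.6) at 50 kb or more. These 3 shares did not differ beyond their intervals, nor from that of low peaks of 10 to under 20 kb. At a pileup of 30 to under 40 the share was 54.0% of 50 peaks under 1 kb. It was 35.4% of 175 from 1 to under 2 kb and 40.3% of 496 from 2 to under 5 kb. From there it rose, also past 20 kb. It was 63.2% (57.6 to 68.4) of 323 from 10 to under 20 kb and 81.6% (71.03 to 89.5) of 76 of at least 50 kb. The intervals of these last 2 classes did not overlap. Below a pileup of 30 the shares were 67.2% under 1 kb and 74.7% from 2 to under 5 kb. From 10 to under 20 kb the share was 86.2% (82.9 to 89.1). Longer classes did not differ from that beyond their intervals. Their shares were 82.9% from 20 to under 30 kb and 87.3% (76.5 to 94.4) from 30 to under 50 kb. At 50 kb or more the share was 80.95% (58.1 to 94.6) of 21 domains. No step at 20 kb was seen in this measure.

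By the next peak on each side, the 493 domains fell into 3 classes. A first class of 107 domains (21.7%, 18.1 to 25.6) had no other peak within 5 kb, with a median length of 28.5 kb and a median pileup of 33.2. A second class of 279 (56.6%) had a next peak within 5 kb, but none that was well-marked. Its median length was 30.6 kb and its median pileup 30.8. A last class of 107 had a well-marked next peak within 5 kb, with a median length of 28.4 kb and a median pileup of 31.2. Peaks beyond the next one were not counted, so the second class can hold domains with a well-marked peak within 5 kb. For the domain on chromosome 10 from 9302644 to 9333597, such a peak lay 3843 bp away behind a low one. The quartiles of length and of pileup overlapped among the 3 classes.

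Counting only the next peak on each side, a well-marked peak within 5 kb lay beside 21.7% of the long low domains. The share was 19.7% (18.95 to 20.4) in the short low peaks, with intervals that overlapped. Well-marked peaks beyond the next one were left out in every set, and how many were missed was not counted. Such a peak was found for 12.7% (11.5 to 14.02) of the long well-marked domains and 17.4% of all autosomal peaks. The neighbour was itself at least 20 kb long for 79 long low domains (16.02%, 12.9 to 19.6), against 182 long well-marked domains (6.83%). That share was 10.6% in the short low peaks and 8.75% over all autosomal peaks. In the 107 domains the neighbouring peak with the highest pileup had a median of 53.2 and a highest value of 164.0, and exceeded its domain by a median ratio of 1.73, with quartiles of 1.52 and 2.247. In 1 of the 107 the domain was flanked in this way on both sides. The nearest well-marked peak at any distance was a median of 43.8 kb away (31.7 to 52.9) from the long low domains, 39.5 kb (36.2 to 42.6) from the long well-marked domains and 29.1 kb (27.9 to 30.3) from the short low peaks. The first and second of these intervals overlap.

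Long low domains also lay near one another. The next peak on at least 1 side was a long low domain within 5 kb for 63 of them (12.8%, 9.96 to 16.1). This held for 79 long well-marked domains (2.97%, 2.36 to 3.68). That share was 3.23% in the short low peaks and 2.91% over all autosomal peaks. At the larger distances below, any long low domain was counted and not only the next peak. Within 100 kb, 153 long low domains (31.03%, 26.97 to 35.3) had another, whereas 10.3% (9.16 to 11.5) of the long well-marked domains, 17.3% (16.7 to 18.1) of the short low peaks and 14.1% of all autosomal peaks had a long low domain at that distance. Within 1 Mb, 292 did (59.2%, 54.7 to 63.6), against 39.5% (37.6 to 41.4) of the long well-marked domains, 44.9% (43.98 to 45.8) of the short low peaks and 42.4% of all autosomal peaks. The median distance to the nearest other long low domain was 609.8 kb, and 56 domains had none within 5 Mb.

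The domain with the most others within 1 Mb was on chromosome 9, between 70987537 and 71012485. Its length was 24.9 kb, with a pileup of 26.9, and had 5 others in reach although no peak of any kind came within 310.6 kb. Those 5 ran from 70055367 to 71812720, with lengths of 27.1 to 67.4 kb and pileups of 30.9 to 39.01.

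Joined across gaps of at most 3 kb, long low domains often formed part of a chain. A chain of at least 2 peaks held 336 of the 493 (68.2%, 63.8 to 72.2), against 42.8% (40.9 to 44.7) of the long well-marked domains and 57.1% (56.2 to 58.03) of the short low peaks. A chain of at least 5 peaks held 60 (12.2%, 9.42 to 15.4), against 2.55% (1.99 to 3.23) of the long well-marked domains and 7.74% (7.26 to 8.25) of the short low peaks. Of the 336, 224 were in chains with no well-marked peak and 112 in chains with at least 1. The domain was the longest peak of its chain in 229 of the 336 and the one with the highest pileup in 170. The 493 domains lay in 452 chains or single peaks, of which 36 held more than 1 and none more than 3.

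The chain with the most peaks around long low domains lay on chromosome 15, from 52956751 to 53177354. It held 14 peaks over 220.6 kb, of which 90.7% was covered, and no pileup in it exceeded 31.8. The first 10 peaks were 1.22 to 9.36 kb long with pileups of 19.9 to 24.6. They were followed by long low domains of 37.7 and 36.8 kb with pileups of 25.4 and 26.05, a peak of 18.8 kb at 25.1, and another long low domain of 57.2 kb at 31.8. The pileup was thus highest at the right end of the chain and lowest at its left end. Other chains with 3 long low domains lay on chromosome 2 (37929594 to 38142709, and 134611981 to 134947504), chromosome 9 (56168322 to 56320734) and chromosome 16 (89908493 to 90053863). They spanned 145.4 to 335.5 kb, and the one on chromosome 16 also held no well-marked peak.

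At the other extreme, 5 long low domains lay more than 200 kb from any other peak. The farthest was a domain of 29.3 kb on chromosome 4, between 57283836 and 57313101, which had a pileup of 29.2, a fold of 2.58 and no other peak within 323.7 kb. The one on chromosome 9 with the most other long low domains within 1 Mb came next. It was followed by a domain of 60.3 kb on chromosome 8, between 130882556 and 130942846, which had a pileup of 27.7 and 266.9 kb to its nearest peak. A domain of 43.9 kb on chromosome 9 from 98197337 to 98241215 had a pileup of 29.3 and 221.4 kb, and the domain of 141.1 kb on chromosome 10 described above was the fifth. Their folds ran from 2.27 to 3.04.

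More of the sequence around long low domains was marked than around long well-marked ones, and weak marking close by differed the most. In the 100 kb on each side, other peaks covered a median of 31.3% (28.9 to 33.9) around the long low domains, 17.2% (16.3 to 17.97) around the long well-marked domains and 26.1% (25.7 to 26.5) around the short low peaks. Peaks with a pileup below 40 covered a median of 10.8% (8.56 to 12.0) around the long low domains, against 3.69% (3.48 to 4.01) around the long well-marked and 6.26% (6.05 to 6.45) around the short low ones. Well-marked peaks covered 12.1% (9.59 to 14.1), 9.88% (9.13 to 10.6) and 13.5% (12.98 to 13.96) around the 3 sets in the same order, with intervals that overlapped between the first and each of the others. Within 500 kb on each side the medians lay closer together, at 16.6% (15.2 to 18.2), 14.96% (14.5 to 15.6) and 17.001% (16.8 to 17.2). With only neighbours of −log10 q of at least 5 counted, the 100 kb medians were 18.5% (16.1 to 20.9) around the 493 long low domains and 12.2% (11.6 to 12.97) around the long well-marked ones. With neighbours of at least 10 they were 12.8% (9.96 to 14.5) and 10.1% (9.25 to 10.7), with intervals that overlap. With the domains filtered too, the 36 long low domains left at 10 had 8.81%, in the other direction, with an interval of 0 to 19.7 that holds the 10.1% of the long well-marked ones.

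**Figure D4:**
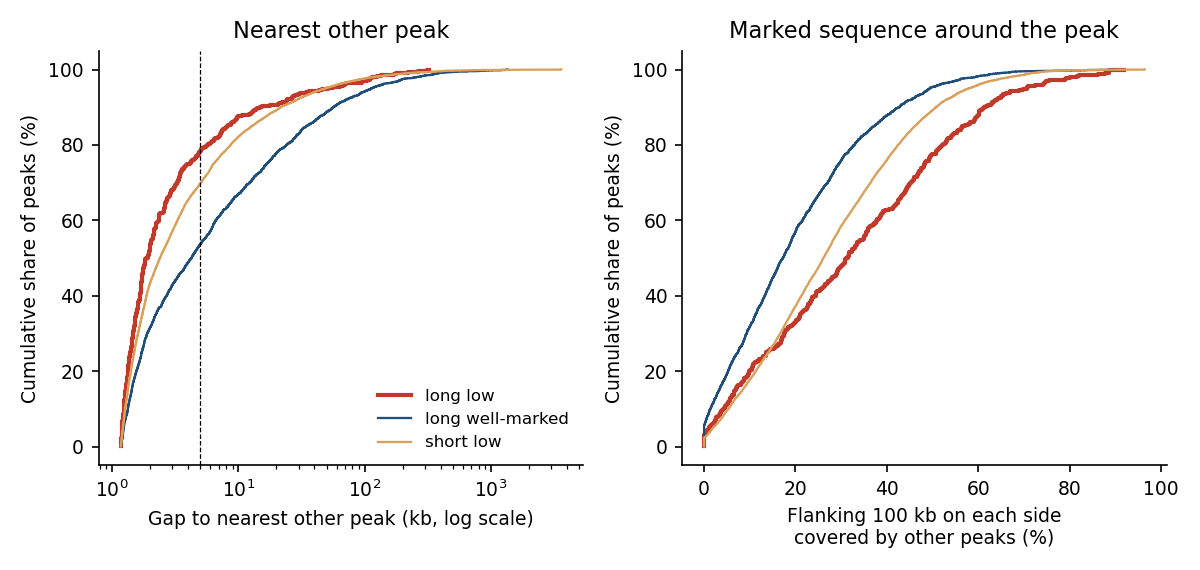
Cumulative share of peaks (y axis, %) by the gap to the nearest other peak (left, kb, log scale, dashed line at 5 kb) and by the share of the flanking 100 kb on each side covered by other peaks (right, %), for long low domains, long well-marked domains and short low peaks. The red curve of the long low domains rises first on the left, with a median of 1.85 kb, and crosses its middle last on the right, with a median of 31.3%.

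Both patterns were seen chromosome by chromosome. On 19 of the 19 autosomes the share with a peak within 5 kb was higher in the long low domains than in the long well-marked ones, and on 15 it was higher than in the short low peaks. The narrowest difference from the long well-marked domains was on chromosome 9, at 62.5% against 59.5%, and the widest on chromosome 16, at 94.4% against 44.9%. The median cover of the flanking 100 kb was higher than around the long well-marked domains on 19 autosomes, and higher than around the short low peaks on 14. Chromosomes are not replicates, and each holds only 14 to 47 of the domains.

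The autosomes differed in how many of their long peaks were low. The share of peaks of at least 20 kb with a pileup below 40 was highest on chromosome 15, with 34 of 140 (24.3%, 17.4 to 32.2), and on chromosome 13, with 36 of 152 (23.7%, 17.2 to 31.3). It was lowest on chromosome 11, with 23 of 242 (9.50%, 6.12 to 13.9), and on chromosome 4, with 21 of 191 (10.995%, 6.94 to 16.3). The median autosome had 15.5%. The intervals of chromosomes 15 and 13 lay above those of chromosomes 11 and 4, and they overlapped those of the other 15 autosomes. As a share of all peaks of a chromosome, long low domains ran from 1.61% on chromosome 17 to 4.50% on chromosome 15. The median pileup of the domains, bounded by the rule, lay between 29.9 on chromosome 5 and 35.5 on chromosome 19, and their median length between 24.8 and 37.2 kb. On X, which the rule leaves out, 20 of 68 peaks of at least 20 kb had a pileup below 40 (29.4%, 18.98 to 41.7). How many copies of X the pooled cells carried, which scales the pileup there, is not given in the labels.

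**Figure D5:**
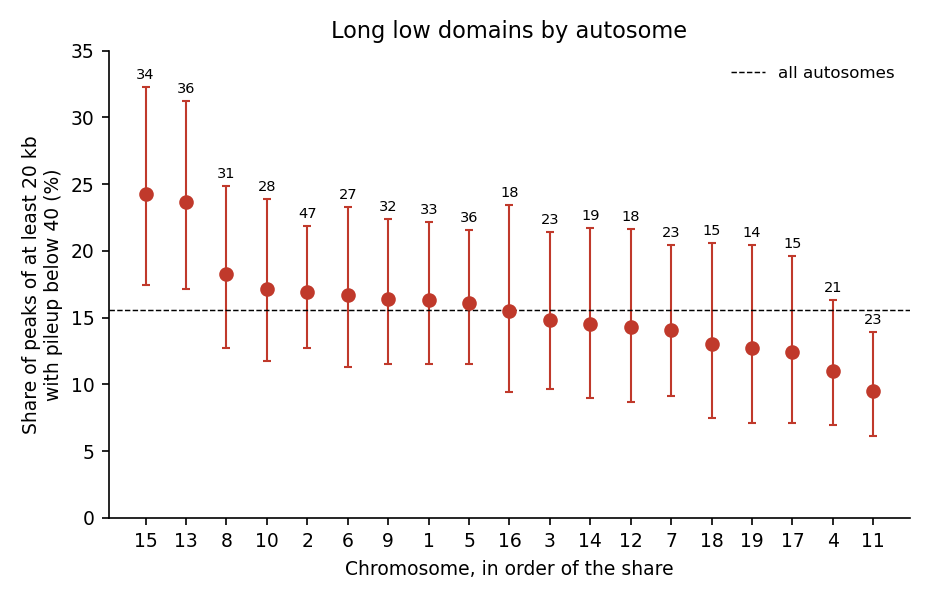
Share of autosomal peaks of at least 20 kb with a pileup below 40 (y axis, %), with exact 95% intervals as bars and the number of long low domains above each, by chromosome in order of the share. The dashed line is the value over all autosomes, 15.6%, and chromosomes 15 and 13 lie highest and chromosome 11 lowest.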

How the data were processed

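Leukaemia chromatin was sequenced after H3K79me2 precipitation (3 libraries) or as input (3), grouped by the titles. MACS2, bedtools 2.25.0, SAMtools, GSNAP and CASAVA 1.8.2 and the build mm9 are named in the submitters' processing notes. Settings and calling mode are not given in the sources used here. Per the file headers, the authors' deposited list holds each peak's position and length, its pileup (a coverage signal whose scaling is not stated), fold enrichment (the authors' ratio to control background), −log10 p (not used) and −log10 q. If regions were called in broad mode, pileup and fold are averages over a peak. Depth per library is not stated there either and is known only through the pileup, which is at least 19 in the list.

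Gaps, chains and flanking cover were computed on autosomal peaks. The control background was taken as (pileup + 1) / fold − 1, which assumes that MACS2 adds 1 to both. Flanks of 100 or 500 kb on each side count bases under any other peak. No test was run. Members, comparison sets and lists were chosen with earlier results of these data known. Regions named are the 5 longest, weakest, strongest by fold and by −log10 q, and most isolated, those next to each threshold, and the one with the most others within 1 Mb. The chains named were picked with their values in view. The planned gene lists were not used for want of an mm9 annotation. Member counts, gaps to the nearest peak, joining across 3 kb and median intervals were tested on simulated data. Flanking cover, the kinds of neighbour and distances between long low domains were not tested in this way. The work used matplotlib 3.10.9, pandas 2.3.3, scipy 1.17.1 and numpy 2.4.6 in Python 3.11.15.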

Additional observations from a re-analysis of the deposited data

How the results depend on the processing

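No paired analysis was possible because the list pools the libraries, which also prevents leaving out a replicate. Gene overlap was not run. Of 72 alternatives, 14 were chosen after seeing the data, those of flanking cover and of filtered neighbours, and 27 values stayed within 1.5 times or within the interval of the value reported. The number of domains, 493, was 755 from 15 kb, 244 from 30 kb and 296 and 36 at −log10 q limits of 5 and 10. Their share of covered bases, 8.45%, was 0.890% at a −log10 q of at least 10. The share of long peaks that were low, 15.6%, was 18.2% from 15 kb, 12.7% from 30 kb, 11.2% below a pileup of 35, 20.8% below 45, 10.003% and 1.34% at −log10 q limits of 5 and 10, and 19.4% after merging across 3 kb. The median fold, 2.62, was 2.56 from 15 kb, 2.68 from 30 kb, 2.46 below 35, 2.83 below 45, 2.88 and 3.26 at the 2 −log10 q limits and 2.53 merged. The median length, 29823 bp, was 23558 from 15 kb, 44047 from 30 kb, 33548 and 26704 at the −log10 q limits and 33311 merged. The share with a peak within 5 kb, 78.3%, was 73.3% below 45, 31.8% and 19.4% at the −log10 q limits and 39.6% merged. It was 53.1% for 2 kb and 87.6% for 10 kb. The median gap, 1849 bp, was 1734 from 30 kb, 2094 below 45, 23844 and 66232 at the −log10 q limits and 6124 merged. The flanking cover, 31.3%, was 27.9% below 45, 14.5% and 8.81% at the −log10 q limits and 22.8% merged. Raising the length, the pileup limit or the −log10 q limit changes which peaks enter by construction. A 2 kb window can only lower the share with a close peak, and a 10 kb window can only raise it. With the domains kept, dropping neighbours can only lower that share and the flanking cover and widen the gap. Merging across 3 kb leaves no gap of 3 kb or less. The cause of other moves was not tested. The lowest pileup in the list is 19, and weaker marking is not in it. With the domains kept and only neighbours of a −log10 q limit of 5 or 10 counted, the share with a peak within 5 kb was 32.9% and 22.5%, the median gap 18496 and 42314 bp and the flanking cover 18.5% and 12.8%.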
